A study of Mus musculus with 2 samples.

Results

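The 10 genes described here are members of the Notch pathway: the ligands Dll1, Dll4, Jag1 and Jag2, the receptors Notch1, Notch2, Notch3 and Notch4, and the target genes Hes1 and Hey1. They were taken by symbol, with earlier results of these data known, and are 10 of the 32285 genes listed in both count matrices. The measurements are droplet-based single-cell counts of transcript 3-prime ends from whole uteri of female mice aged 6 months. One group carried floxed Prickle1 alleles (Prickle1 f/f, here control), and the other carried the same alleles with a Cre recombinase driven from Ltf (Prickle1 f/f Ltf-cre, here cKO). Ltf encodes lactoferrin, a secreted protein of the uterine epithelium, so recombination is aimed at epithelial cells, while every cell of both groups carries the floxed alleles. Each group was a pool of 3 mice sequenced as 1 library. There are therefore no replicates, no difference below has a replicate check, and effects of the genotype cannot be told apart from those of the animals or of sample handling. A genotype entry in the labels calls both samples C57BL/6J wild-type, which differs from their titles, and the titles were used.

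Notch receptors are single-pass membrane proteins that are activated by ligands on a neighbouring cell. The bound ligand is pulled into its own cell, which exposes the receptor to cleavage by an ADAM protease and then by gamma-secretase, and the released intracellular domain joins the DNA-binding protein RBPJ to switch on Hes and Hey genes. These genes encode repressors of transcription. In the uterus the pathway is known for roles in gland formation, in the stromal response to pregnancy and in blood and lymphatic vessels, and Dll4 is best known from sprouting vessels and from antigen-presenting cells.

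The 250 bases before the annotated start are shown for Dll4 and Dll1, because these Delta-like ligands had the largest differences between libraries among the members in Epcam-gated cells. Sequences are from RefSeq on GRCm38.p6 and are written 5′ to 3′ on the strand of the gene. Capitals mark the letters of an N-box, CACNAG on either strand, to which Hes proteins can bind.
Dll4, chr2:119325534-119325783, plus strand: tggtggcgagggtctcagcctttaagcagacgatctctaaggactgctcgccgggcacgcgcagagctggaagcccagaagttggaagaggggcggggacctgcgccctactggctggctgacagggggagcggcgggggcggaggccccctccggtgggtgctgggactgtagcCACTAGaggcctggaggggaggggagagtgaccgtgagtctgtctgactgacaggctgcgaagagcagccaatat
Dll1, chr17:15376933-15377182, minus strand: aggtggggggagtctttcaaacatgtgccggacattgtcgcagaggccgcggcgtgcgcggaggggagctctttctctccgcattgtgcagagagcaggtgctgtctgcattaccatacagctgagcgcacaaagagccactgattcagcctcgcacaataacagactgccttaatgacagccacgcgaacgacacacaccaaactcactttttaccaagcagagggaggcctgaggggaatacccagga
In Dll4 the N-box letters begin at position -75 counted from the start, and in this Dll1 window there are none. Of the 10 members 8 had an entry, with 9 windows in all, and N-box letters were found in those of Dll4, Notch1, Notch2 and Notch3, beside 36.7% of all 32851 windows of this length. The core letters of an RBPJ site, TGGGAA on either strand, were in 0 of the 9 windows and in 21.6% of all windows. A match, or its lack in a short window, is a description of letters only.

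Cells were barcodes with at least 500 genes and at most 20% mitochondrial counts, 3653 in control and 4950 in cKO, with 5 barcodes shared by both. Median depth per cell was 4650 unique molecular identifiers (UMIs, counted molecules) in control and 5944 in cKO. Prickle1 itself had 15 UMIs in control and 16 in cKO among Epcam-gated cells, or 0.865 CPM (0.484 to 1.43) and 3.93 CPM (2.24 to 6.38), where CPM are counts scaled to a common total per class. Over all cells it had 100 and 436 UMIs, or 2.65 and 8.24 CPM. It was thus higher, not lower, in the library labelled cKO, also among the Epcam-gated cells. A 3-prime count can lie outside the deleted exons, so this does not check the genotype, and every direction below refers to the libraries as labelled. Cells were assigned by a UMI of one gate gene: Epcam (epithelial), Pdgfra (stromal), Actg2 (muscle), C1qa (macrophage), Flt3 (dendritic) or Cd3e or Ncr1 (lymphoid). Cells carrying gates of several classes, 170 in control and 249 in cKO, were left out. Pecam1 (vessel lining and many leukocytes) and Upk3b (the mesothelial lining of the serosa) were used as gates for the cells that remained. In each gated class every marker of its own list had UMIs, and the list's summed level was above that of all cells of the same library. In the C1qa class, however, the dendritic list summed to more than the macrophage list, 11764 against 8241 CPM in control and 16287 against 9695 CPM in cKO.

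Several gates held mixed cells, and this bears on the members. Among Epcam-gated cells, a Upk3b UMI was present in 26 of 961 in control (2.71%) and 34 of 135 in cKO (25.2%). Ptprc, the common leukocyte antigen, was found in 3.12% and 31.1% of them, and the keratin Krt8 in 95.1% and 63.7%. The summed level of the 12 stromal markers was 262 and 3132 CPM. In both, 11 of 12 were detected and Pdgfra was at 0 by construction. The 4 B or plasma cell markers summed to 6.52 and 1221 CPM, all 4 detected in both. Epithelial values of the members are therefore given with all Epcam-gated cells and again without those carrying Upk3b. Stromal or endothelial markers (Dcn, Col3a1, Cdh5 or Prox1) were found in 18.4% of control and 10.9% of cKO macrophages, 4.76% and 22.4% of dendritic cells, and 3.87% and 8.20% of lymphoid cells. In lymphoid cells the B or plasma cell markers summed to 5.39 and 484 CPM, and the dendritic list to 120 and 1112 CPM. In the Pecam1 gate, 71.8% of its control cells and 81.7% of its cKO cells carried Ptprc, and 17 of 117 and 37 of 449 carried Cdh5, an endothelial cadherin. In the Upk3b class the stromal list summed to 12238 and 14662 CPM, with 10 of 12 markers detected and Pdgfra at 0, beside 13154 and 13251 CPM in Pdgfra-gated cells, and the mesothelial list to 2396 and 2520 CPM.

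Each member had its own distribution over the classes, and for 5 of the 10 the highest class was the same in both libraries. Jag1 and Notch1 were highest in C1qa-gated macrophages, Notch2 in lymphoid cells, and Dll1 and Hes1 in Upk3b-gated cells. For Notch2 in control the lymphoid interval overlapped those of macrophages, stromal and Upk3b-gated cells. Hey1 was highest in Pecam1-gated cells of control and in Upk3b-gated cells of cKO, where the Pecam1 class overlapped it. The highest class of Jag2, Notch3 and Notch4 also differed, within overlapping intervals. Dll4 was highest in Epcam-gated cells of control, at 23.9 CPM, and in Flt3-gated cells of cKO, at 28.8 CPM. Here and below a level is CPM of the summed counts of a class. Intervals are exact at 95% (Poisson for levels, conditional binomial for ratios, Clopper-Pearson for shares) and cover counting error only.

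**Figure D1:**
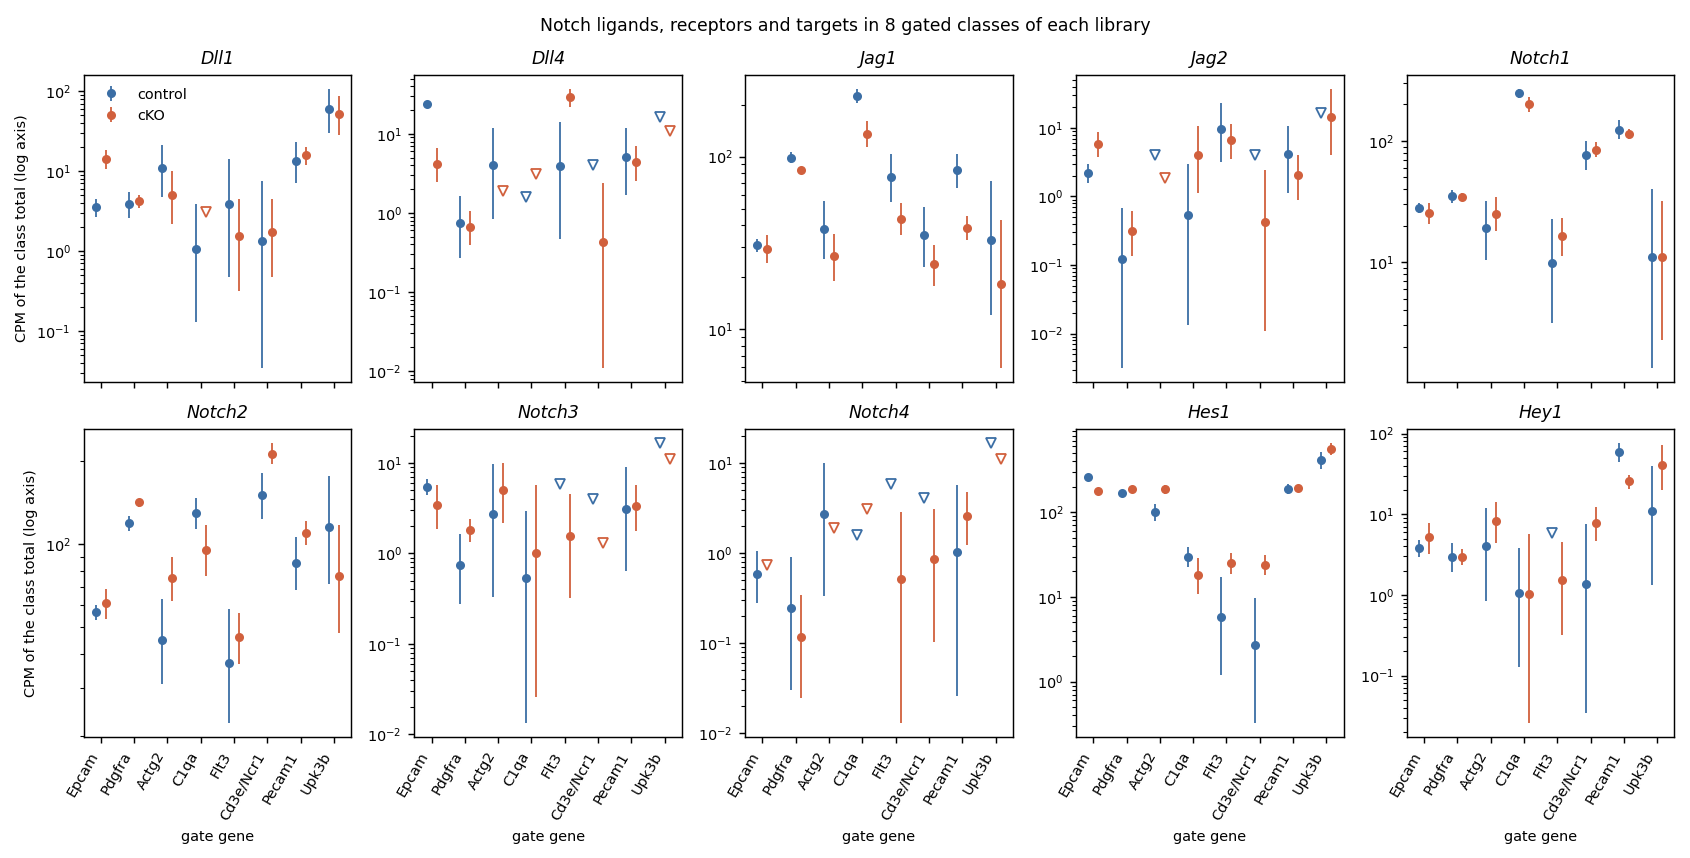
Level of each member (CPM of the class total, log axis) in 8 classes named by their gate gene, control in blue and cKO in orange. Points are summed counts of 1 library with exact Poisson 95% intervals, and open triangles mark the level of 3 counts where a member had 0 UMIs. Jag1 and Notch1 peak in the C1qa class, and Dll4 is high in Epcam-gated cells of control and Flt3-gated cells of cKO.

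Dll4 (ENSMUSG00000027314, chr2:119325784-119335962, plus strand, here and below on GRCm38) encodes a Delta-like ligand. In Epcam-gated cells it had 415 UMIs in control, 23.9 CPM (21.7 to 26.3), and 17 UMIs in cKO, 4.17 CPM (2.43 to 6.68). Its cKO to control ratio was 0.174 (0.101 to 0.283), and the intervals do not overlap. Without the Upk3b-carrying cells the levels were 24.7 and 5.28 CPM, a ratio of 0.214 (0.121 to 0.351). With Krt8 also required and Ptprc-carrying cells left out (872 and 49 cells), they were 24.4 and 5.33 CPM, a ratio of 0.218 (0.108 to 0.395). Among the members Dll4 alone was at least 2-fold lower in cKO in the Epcam class, out of 9 with at least 20 UMIs over both libraries, where 9.60% of all genes with that many UMIs were. Over all cells it was the 1 member of 10 past 2-fold, at 13.9 CPM in control and 2.27 CPM in cKO, beside 12.7% of genes that were 2-fold lower. Epcam-gated cells made up 26.3% of control and 2.73% of cKO cells, so the all-cell levels of Dll4 also carry the cell makeup.

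The control epithelial signal of Dll4 was spread over many cells. It came from 184 of 961 cells (19.1%), of which 36 held 50% of the UMIs, against 11 of 135 cells (8.15%) in cKO. Median depth per cell differed, 6302 UMIs in control and 14443 in cKO, so cells were also thinned to 1000 UMIs each, with 7 shallower control cells left out. The share was then 1.99% in control (1.20 to 3.09) and 0 of 135 in cKO, which allows up to 2.22%, so at this depth the shares cannot be separated. Macrophages, in which Dll4 was not detected, had 0 of 228 and 0 of 110 cells with a UMI even unthinned (median depths 7930.5 and 8101.5). In barcodes with at most 100 UMIs, which hold cell-free RNA, Dll4 was at 8.92 CPM in control and 1.75 CPM in cKO. In control the level was similar in cells with and without Ltf, at 24.0 and 21.9 CPM. It was 26.1 CPM in cells with a UMI of the interferon gene Ifnb1 and 23.5 CPM in those without, and 18.2 and 24.6 CPM with and without the proliferation gene Mki67, with overlapping intervals in each case. In cKO it was 3.84 CPM in 27 Ltf-carrying cells and 4.52 CPM in the other 108.

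In Flt3-gated dendritic cells Dll4 differed in the opposite direction. It had 2 UMIs in control, 3.91 CPM (0.473 to 14.1), and 56 in cKO, 28.8 CPM (21.8 to 37.4), a ratio of 7.37 (1.95 to 62.3). Nearly all of these cells carried Ccr7, a chemokine receptor of mature dendritic cells: 41 of 42 in control and 127 of 134 in cKO. All 56 UMIs lay in 13 Ccr7-carrying cells, 4 of which held 50% of them, and the control UMIs lay in 1 cell. In the 13 cells the epithelial markers were at 0, 3 of 12 stromal markers were detected and summed to 17.4 CPM, and the endothelial list stood at 330 CPM beside 197 CPM in the other 121 cells. Without cells carrying Dcn, Col3a1, Cdh5 or Prox1 the levels were 4.20 and 38.4 CPM, a ratio of 9.15 (2.42 to 77.5). With cells of several gates kept, the log2 ratio was 0.74, which is under 2-fold. Dll4 had few UMIs in the other main classes. Stromal cells had 0.743 and 0.669 CPM, and the stromal log2 ratio ran from -1.46 to 2.57 over the alternatives. Muscle had 3 and 0 UMIs, macrophages 0 in both libraries, and lymphoid cells 0 and 1. In the Pecam1 class Dll4 was at 5.14 and 4.37 CPM, beside 4.17 CPM in Epcam-gated cells of cKO.

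Dll1 (ENSMUSG00000014773, chr17:15367354-15376872, minus strand), the other Delta-like ligand among the members, had 61 UMIs in Epcam-gated cells of control, 3.52 CPM (2.69 to 4.52), and 57 in cKO, 14.0 CPM (10.6 to 18.1). The ratio was 3.98 (2.72 to 5.80). That difference lay in the Upk3b-carrying cells, which held 47 of the 57 UMIs in cKO, at 45.1 CPM, and 12 of the 61 in control, at 12.8 CPM. Without them the levels were 2.99 CPM (2.21 to 3.95) and 3.30 CPM (1.58 to 6.06), a ratio of 1.10 (0.498 to 2.21), and under the Krt8 gate 2.88 and 1.94 CPM. In the Upk3b class itself, which shares no cell with the Epcam class, Dll1 was at 60.6 CPM in control, with 90.9% of 11 UMIs in 1 cell, and at 51.2 CPM in cKO, from 12 of 49 cells. The log2 ratio of Dll1 there was -0.24. It turned to past 2-fold higher with the mean of cells and without the top cell of each library (2.87 in the latter). Epcam-gated cells without Ltf had more of it than those with Ltf in both libraries, 24.2 against 2.43 CPM in control and 27.6 against 0.961 CPM in cKO. In the other classes with at least 20 UMIs the ratio of Dll1 was 1.09 (stromal, 3.84 and 4.17 CPM) and 1.17 (Pecam1, 13.4 and 15.7 CPM). Among the Cdh5-carrying cells of the Pecam1 gate the ratio was 2.02 (0.942 to 4.96), at 22.2 and 44.7 CPM. With thinning the log2 ratio of the whole gate was -1.37, from 2 and 3 UMIs.

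Jag1 (ENSMUSG00000027276, chr2:137081456-137116644, minus strand) encodes a Serrate-type ligand and was lower in cKO in all 6 main classes, by less than 2-fold in each in the main analysis. Under alternatives Jag1 was past 2-fold lower with thinning and with the mean of cells in muscle (down to log2 -1.73) and macrophages (down to log2 -1.03). In C1qa-gated macrophages it was at 225 CPM in control (204 to 248) and 136 CPM in cKO (114 to 161), giving a ratio of 0.603 (0.493 to 0.735), and these intervals do not overlap. Stromal cells had 98.7 and 83.5 CPM, a ratio of 0.846 (0.779 to 0.919). Dendritic cells had 76.2 and 43.7 CPM, a ratio of 0.574 (0.388 to 0.861). Without cells carrying stromal or endothelial markers it was 0.676 (0.442 to 1.05), which includes 1, whereas Jag1 was past 2-fold lower there under 5 alternatives, down to a log2 ratio of -1.35 with thinning. The intervals of the ratio include 1 in Epcam-gated cells (30.6 and 29.2 CPM), muscle (38.2 and 26.4 CPM) and lymphoid cells (35.0 and 23.7 CPM). Under the restricted epithelial gates they do not: the ratio was 0.744 (0.568 to 0.962) without Upk3b-carrying cells, at 29.7 and 22.1 CPM, and 0.705 (0.503 to 0.965) with Krt8 required. The epithelial levels of Jag1 were under its 34.5 and 47.7 CPM in cell-free barcodes. When cells were thinned to equal depth the sign turned in stromal cells (log2 0.35) and in Epcam-gated cells (log2 1.36, from 22 and 8 UMIs). The macrophage difference lay mostly in cells carrying Mrc1, the mannose receptor of resident macrophages: with Mrc1 it was at 259 and 139 CPM, and without it at 101 and 125 CPM. In lymphoid cells every Jag1 UMI came from Cd3e-carrying T cells, and the Ncr1-carrying natural killer cells had 0 UMIs in 19 control and 37 cKO cells, where the upper Poisson limits are 23.7 and 12.1 CPM.

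Jag2 (ENSMUSG00000002799, chr12:112907819-112929776, minus strand), the related ligand, had few UMIs in every class. The Epcam class held 38 UMIs in control, 2.19 CPM (1.55 to 3.01), and 24 in cKO, 5.89 CPM (3.77 to 8.76), a ratio of 2.69 (1.54 to 4.60). Here the restricted gate made little difference, with 2.13 and 5.61 CPM without Upk3b-carrying cells and a ratio of 2.63 (1.38 to 4.82). Dll1 and Jag2 were the 2 members past 2-fold higher in the Epcam class, where 29.7% of all genes tested were, and 39.3% were past 2-fold in either direction, beside 3 of the 9 members. Read against those shares, the counts show nothing particular to the members. The Jag2 ratio was under 2-fold with the mean over cells in place of the sum (log2 0.54) and with TMM or median-of-ratios scaling. Dendritic cells had 5 and 13 UMIs of Jag2 (9.77 and 6.69 CPM), stromal cells 1 and 8, and muscle 0 in both. The highest levels were in dendritic cells of control and in Upk3b-gated cells of cKO (14.6 CPM from 4 UMIs), with intervals that overlap the epithelial ones in cKO but not in control. Without cells carrying Dcn, Col3a1, Cdh5 or Prox1, control dendritic cells had 2 UMIs, 4.20 CPM (0.508 to 15.2), which overlaps the epithelial interval.

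**Figure D2:**
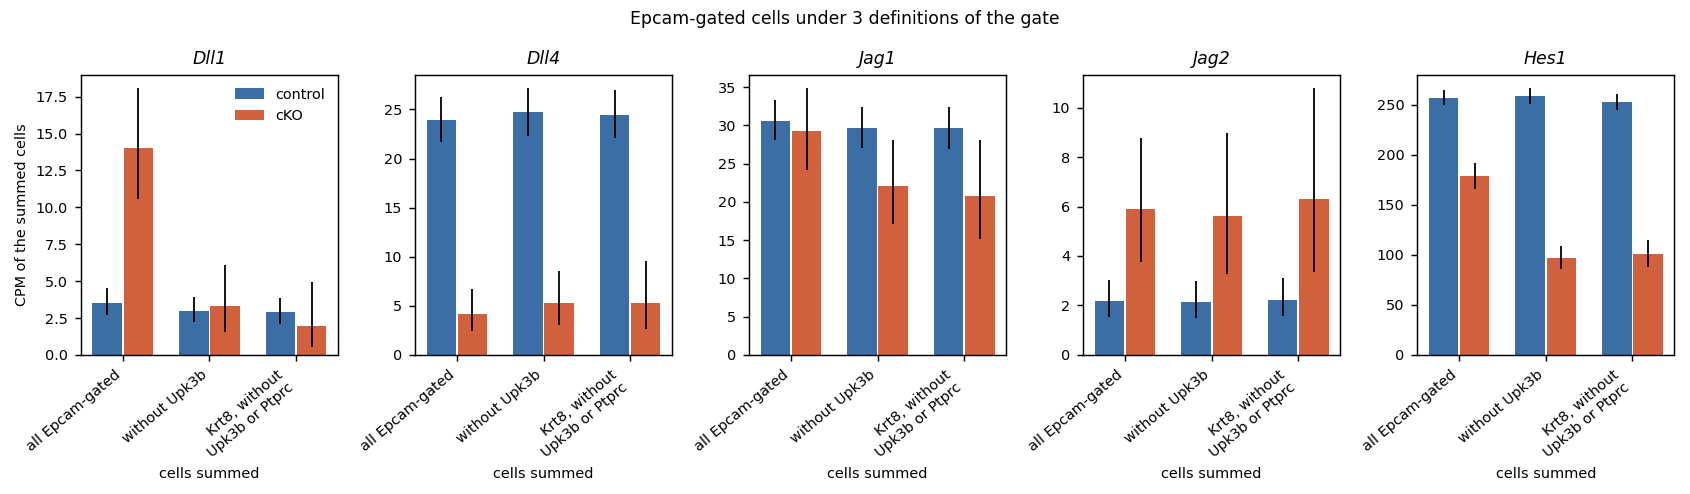
CPM of 4 ligands and of Hes1 in Epcam-gated cells of control (blue) and cKO (orange) under 3 definitions of the gate, with exact Poisson 95% intervals. The Dll4 bars barely move between definitions, the cKO bar of Dll1 drops from 14.0 to 3.30 CPM and that of Hes1 from 179 to 96.9 CPM once Upk3b-carrying cells are left out.

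Of the receptors with at least 20 UMIs in the 6 main classes, stromal Notch3 alone was past 2-fold in the main analysis. Under alternatives epithelial Notch3 was past it, with log2 ratios of -1.24 with the mean of cells, -1.25 with TMM and -1.27 with median-of-ratios scaling. Notch1 was past it with a gate of 2 UMIs in muscle (1.51) and dendritic cells (1.48), and in the latter also without the top cell (1.19). Notch1 (ENSMUSG00000026923, chr2:26457903-26516663, minus strand), a broadly expressed receptor with known roles in T cells and vessels, was at 248 CPM in control macrophages (226 to 271) and 200 CPM in cKO (173 to 231), giving a ratio of 0.809 (0.681 to 0.958). In stromal cells its levels were 34.9 and 34.7 CPM, a ratio of 0.993 (0.868 to 1.14). Epcam-gated cells had 28.1 and 25.3 CPM, and lymphoid cells 76.8 and 84.9 CPM, with ratios whose intervals include 1. In cell-free barcodes Notch1 was at 55.5 and 64.8 CPM, above its levels in all classes but the C1qa, Pecam1 and lymphoid ones. The restricted epithelial gates gave opposite directions for Notch1: 28.0 and 31.0 CPM, a ratio of 1.11 (0.878 to 1.39), without Upk3b-carrying cells, and 28.0 and 17.0 CPM, a ratio of 0.606 (0.417 to 0.857), with Krt8 required. In both libraries the order of Notch1 levels began with the C1qa, Pecam1, lymphoid and stromal classes, each above the next beyond their intervals. The remaining classes, from 9.77 to 28.1 CPM, mostly overlapped their neighbours.

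Notch2 (ENSMUSG00000027878, chr3:98013527-98150361, plus strand), a receptor known from B cells and dendritic cells, was higher in cKO in lymphoid, stromal and muscle cells and lower in macrophages. The lymphoid sum was 112 UMIs in control, 151 CPM (124 to 181), and 494 in cKO, 213 CPM (195 to 233), a ratio of 1.41 (1.15 to 1.75). Cd3e-carrying cells had 179 and 227 CPM, and Ncr1-carrying cells 44.9 and 125 CPM. The lymphoid class also held B or plasma cell and dendritic markers, at higher levels in cKO, and their part in its Notch2 level was not tested. Stromal cells had 119 CPM (112 to 127) and 142 CPM (137 to 146), a ratio of 1.19 (1.11 to 1.28). Muscle had 45.0 and 75.3 CPM, a ratio of 1.67 (1.13 to 2.54), but both levels were under the 66.7 and 97.2 CPM of Notch2 in cell-free barcodes. Macrophages had 130 and 95.1 CPM, a ratio of 0.732 (0.570 to 0.933). Without cells carrying Dcn, Col3a1, Cdh5 or Prox1 the macrophage ratio was 0.853 (0.653 to 1.11), which includes 1. Every one of these differences was under 2-fold, and Epcam-gated cells, at 56.5 and 60.9 CPM, had a ratio of 1.08 (0.933 to 1.24). The Epcam-gated levels of Notch2 were likewise under those of cell-free barcodes. Without Upk3b-carrying cells the epithelial ratio was 0.922 (0.773 to 1.09), and with TMM scaling the log2 ratio of Notch2 there turned from 0.11 to -0.48.

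Notch3 (ENSMUSG00000038146, chr17:32120820-32166852, minus strand), best known from mural cells of vessels, was at 5.42 CPM in Epcam-gated cells of control and 3.44 CPM in cKO, with a ratio of 0.634 whose interval, 0.334 to 1.12, includes 1. Without Upk3b-carrying cells the ratio was 0.823 (0.433 to 1.45), and with Krt8 required 1.02 (0.508 to 1.87). In stromal cells it had 6 and 46 UMIs, 0.743 and 1.81 CPM, a ratio of 2.44 (1.04 to 6.98). It was the only stromal member past 2-fold, 1 of 8, where 5.97% of all genes tested were 2-fold higher and 6.88% lower. With cells of several gates kept, its log2 ratio was 0.94, under 2-fold. Notch4 (ENSMUSG00000015468, chr17:34564268-34588503, plus strand), a receptor of endothelial cells, had 21 UMIs over all control cells and 17 over all cKO cells. Its 10 UMIs in Epcam-gated cells of control stood against 0 in cKO, which allows up to 0.736 CPM, above the control level of 0.577 CPM, so no difference was detectable at this depth. The restricted epithelial gates left the same UMIs of Notch4.

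Hes1 (ENSMUSG00000022528, chr16:30064384-30067796, plus strand), a target and repressor, was found in most Epcam-gated cells of both libraries. The Epcam class held 4457 UMIs in control, 257 CPM (250 to 265), and 728 in cKO, 179 CPM (166 to 192), a ratio of 0.695 (0.642 to 0.752). Here too the mixed gate moved the value, but leaving out the Upk3b-carrying cells widened the difference where it had closed that of Dll1. Without Upk3b-carrying cells the levels were 259 and 96.9 CPM, a ratio of 0.375 (0.332 to 0.422), which is more than 2-fold lower, as were 11.1% of all genes under that gate. With Krt8 required they were 253 and 101 CPM, a ratio of 0.399 (0.345 to 0.458), where 13.4% of genes were 2-fold lower. The 34 Upk3b-carrying cells of cKO were at 417 CPM. Among Ltf-carrying cells Hes1 was at 251 CPM in 795 control cells and 104 CPM in 27 cKO cells. At equal depth of 1000 UMIs, 23.9% of control Epcam-gated cells (21.2 to 26.7) and 11.9% of cKO cells (6.93 to 18.5) had a Hes1 UMI, beside unthinned shares of 66.6% and 52.6%. Dendritic cells had thinned shares of 0 of 42 and 1.49%. The ratio rested partly on the deepest cells: without the top 2% of cells by UMIs the log2 ratio was 0.00. With TMM or median-of-ratios scaling Hes1 was past 2-fold lower.

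Outside the epithelium Hes1 was higher in cKO in muscle and stroma. Muscle had 73 and 298 UMIs, 99.5 CPM (78.0 to 125) and 187 CPM (166 to 210), a ratio of 1.88 (1.45 to 2.46). Muscle Hes1 was past 2-fold under 4 alternatives, up to a log2 ratio of 1.56 with thinning. None of the 4 muscle members with enough UMIs was past 2-fold, where 8.43% of genes were higher and 3.63% lower. Stromal cells had 168 CPM (159 to 177) and 189 CPM (184 to 195), a ratio of 1.13 (1.06 to 1.20). Macrophages had 29.7 and 18.4 CPM, a ratio of 0.620 (0.343 to 1.07). The 56 control UMIs lay in 15 of 228 cells, 2 of which held 50% of them, and the levels were under the 164 and 130 CPM of Hes1 in cell-free barcodes. Without cells carrying Dcn, Col3a1, Cdh5 or Prox1 it was past 2-fold, 0.381 (0.179 to 0.740), with the mean of cells the log2 ratio was -2.57, and with cells of several gates kept the log2 ratio of Hes1 turned to 0.46. With all C1qa-gated cells, none of their 4 members was past 2-fold, where 10.6% of genes were higher and 4.63% lower.

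In lymphoid and dendritic cells the Hes1 counts came from few cells that also carried markers of other types. The Hes1 levels of both classes were under those of cell-free barcodes, 164 CPM in control and 130 CPM in cKO. In lymphoid cells Hes1 went from 2 UMIs in the control sum to 56 in cKO, 2.69 and 24.1 CPM, a ratio of 8.96 (2.37 to 75.8). This was the 1 lymphoid member of 4 past 2-fold, where 9.17% of genes were higher and 3.17% lower. The 56 UMIs lay in 14 of 427 cells, 3 of which held 50% of them. In those 14 cells 11 of 12 stromal markers were detected, with Pdgfra at 0, and summed to 3174 CPM beside 48.4 CPM in the other 413. The endothelial list, 10 of 13 detected, summed to 1687 CPM beside 65.7 CPM. Leaving out cells with Dcn, Col3a1, Cdh5 or Prox1 gave 2 and 19 UMIs and a ratio of 3.31 (0.797 to 29.3), and keeping cells of several gates gave a log2 ratio of 0.12. Dendritic cells had 3 and 49 UMIs, 5.86 and 25.2 CPM, a ratio of 4.30 (1.39 to 21.6), and 1 cell held over 50% of the cKO UMIs. In the 10 Hes1-carrying cKO dendritic cells the stromal list summed to 2147 CPM beside 123 CPM in the others, and the endothelial list to 1303 CPM beside 94.6 CPM. With the same cells left out, Hes1 was at 4.20 and 3.49 CPM, so the direction turned, and with cells of several gates kept the log2 ratio of dendritic Hes1 was 0.22. Dll4 and Hes1 were the 2 dendritic members of 5 past 2-fold, where 18.3% of all genes were higher and 5.24% lower.

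Hey1 (ENSMUSG00000040289, chr3:8663359-8667256, minus strand), a target known from vessels, was concentrated in the endothelial cells of the Pecam1 gate. The gate had 58.5 CPM in control (44.3 to 75.9) and 25.5 CPM in cKO (20.7 to 31.0), giving a ratio of 0.435 (0.311 to 0.614). Jag1 there was at 83.2 and 38.6 CPM, a ratio of 0.464 (0.352 to 0.615), and 4 cells held 50% of its control UMIs. It was under 2-fold with a minimum of 1000 genes (log2 -0.98), a gate of 2 UMIs (-0.94) and without the top 2% of cells by UMIs (-0.97). With thinning the log2 ratio of Jag1 was -3.22, from 12 and 5 UMIs. Hey1 and Jag1 were the 2 members of 7 past 2-fold in the gate, both lower, where 7.55% of genes were higher and 6.95% lower. The cells with Cdh5, which made up 14.5% of the gate in control and 8.24% in cKO, held 56 of 57 and 87 of 99 Hey1 UMIs. In control 1 cell held 22 of the 57 UMIs (38.6%), and without the top cell of each library the log2 ratio of Hey1 went from -1.20 to -0.86, under 2-fold, as it was with thinning (-0.96, from 3 and 6 UMIs). Among the Cdh5-carrying cells Hey1 was at 155 CPM (117 to 201) and 86.5 CPM (69.3 to 107), a ratio of 0.558 (0.394 to 0.795), and Jag1 at 166 and 85.5 CPM, a ratio of 0.514 (0.366 to 0.728). Both were then under 2-fold. Hes1 in the whole gate was at 188 and 192 CPM, a ratio of 1.02 (0.867 to 1.21). It was past 2-fold lower there with thinning and with the mean of cells (down to log2 -1.32). In the 17 and 37 Cdh5-carrying cells Hes1 was at 399 and 589 CPM, a ratio of 1.48 (1.23 to 1.79), Notch1 at 188 and 217 CPM, and Dll4 at 8.31 and 16.9 CPM from 3 and 17 UMIs. Prox1, which marks lymphatic vessels, was found in 14 of the 17 and 29 of the 37. In Epcam-gated cells Hey1 was at 3.81 and 5.15 CPM and in stromal cells at 2.97 and 2.99 CPM, with ratios whose intervals include 1. The epithelial direction turned under the restricted gates, with ratios of 0.592 (0.229 to 1.29) without Upk3b-carrying cells and 0.721 (0.255 to 1.66) with Krt8 required. Epithelial Hey1 was past 2-fold higher without the top 2% of cells by UMIs (log2 1.11) and with thinning (log2 2.82, from 1 UMI in each library).

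In the Upk3b class (31 and 49 cells) 3 members had enough UMIs and none was past 2-fold in the main analysis, where 7.70% of genes were higher and 4.84% lower. Hes1 was at 408 CPM in control (320 to 512) and 556 CPM in cKO (471 to 652), giving a ratio of 1.36 (1.03 to 1.83). These were the highest Hes1 levels of any class in both libraries, from 12 and 24 cells, of which 3 in each library held 50% of the UMIs. The part of the stromal markers of this class in its levels was not tested. Notch2 was at 116 and 76.8 CPM.

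**Figure D3:**
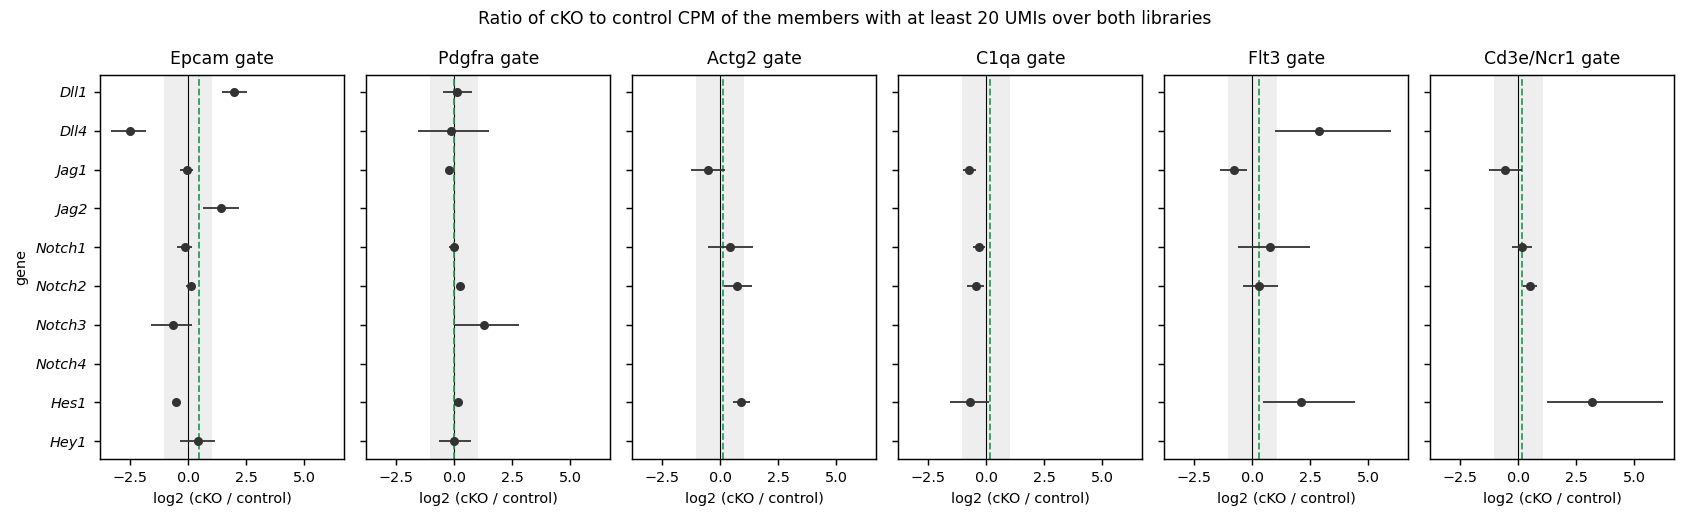
Log2 ratio of cKO to control CPM for the members with at least 20 UMIs over both libraries in 6 gated classes, with exact conditional binomial 95% intervals. The grey band marks less than 2-fold and the green dashed line the median of all genes tested in that class. Dll4 lies left of the band in the Epcam panel and right of it in the Flt3 panel, and the receptors other than stromal Notch3 lie within the band.

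Of 53 other genes of the pathway, 40 had enough UMIs in Epcam-gated cells, and 11 were past 2-fold higher and 2 lower in cKO, with a median log2 ratio of 0.20 beside 0.45 over all genes. In stromal cells 2 were higher and 2 lower of 40, in muscle 1 and 1 of 32, in macrophages 1 and 1 of 29, in dendritic cells 4 and 2 of 31, and in lymphoid cells 1 and 1 of 36. The background shares of each class are those given above. In Epcam-gated cells, where 29.7% of all genes were higher, 3 of 10 genes of receptor cleavage were higher and 0 of 10 of the nuclear complex. Of the genes of receptor glycosylation 3 of 4 tested were higher, with a median log2 ratio of 1.41, and of the other Hes and Hey genes 2 of 3, with a median of 1.39. Of those of turnover and inhibition 2 of 9 were higher and 1 lower, and of those of ligand endocytosis 1 and 1 of 4.

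Dtx3l was named by the rule in 3 classes. It encodes a ubiquitin ligase of the Deltex family that is also induced by interferon. It was at 78.4 CPM in Epcam-gated cells of control and 21.4 CPM in cKO, giving a ratio of 0.272 (0.217 to 0.339). With the mean over cells in place of the sum, the epithelial log2 ratio of Dtx3l went from -1.88 to -0.90, under 2-fold. The ratio was 0.273 in dendritic cells (313 and 85.4 CPM) and 0.320 in lymphoid cells (230 and 73.7 CPM). In stromal cells it was 0.231 (24.2 and 5.59 CPM), but the control level was under that of cell-free barcodes, so the rule did not name it. Neurl1b, a ubiquitin ligase that acts on ligands, was at 3.29 and 0.736 CPM in Epcam-gated cells from 57 and 3 UMIs.

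Among genes higher in Epcam-gated cells of cKO, Psen2, a catalytic subunit of gamma-secretase, was at 4.50 and 24.1 CPM, a ratio of 5.35 (3.93 to 7.29). Aph1b, another gamma-secretase subunit, and Hey2, a relative of Hey1, each had 14 UMIs in control and 21 in cKO, 0.807 and 5.15 CPM. Without Upk3b-carrying cells the log2 ratios were 2.59 for Psen2, 2.72 for Aph1b, 2.15 for Hey2, -1.74 for Dtx3l and -1.73 for Neurl1b, all still past 2-fold. With cells thinned to 1000 UMIs no ratio could be given for Psen2 or Neurl1b, since 6 and 3 UMIs were left in control and 0 in cKO. Without the top 2% of cells by UMIs Neurl1b was under 2-fold, at a log2 ratio of -0.93. In the classes outside the epithelium, Heyl, also of the Hey family, was at 2.72 and 6.57 CPM in stromal cells, a ratio of 2.41 (1.54 to 3.95). The log2 ratio of Heyl went from 1.27 to 0.92 with thinning and 0.84 with the mean of cells, both under 2-fold. Maml3, a co-activator of the RBPJ complex, was at 27.3 and 10.7 CPM in muscle. Its log2 ratio of -1.35 became -0.72 with a gate of 2 UMIs and -0.64 with cells of several gates kept, both under 2-fold. Aph1b was at 13.3 and 5.11 CPM in macrophages, from 25 and 5 UMIs. Its log2 ratio there went from -1.37 to -0.65, under 2-fold, with the mean of cells, and thinning left 4 and 0 UMIs. In dendritic cells 2 of 3 genes tested of receptor glycosylation, which add O-linked sugars, were past 2-fold higher, beside 18.3% of all genes. They were Poglut1 at 48.9 and 150 CPM, a ratio of 3.06 (2.03 to 4.81), and Pofut1 at 3.91 and 14.9 CPM from 2 and 29 UMIs, with a ratio whose interval, 0.965 to 33.0, includes 1. With a gate of 2 UMIs Pofut1 was under 2-fold, at a log2 ratio of 0.72. Thinned to equal depth, the log2 ratio of Poglut1 was 0.72, under 2-fold, and Pofut1 had 0 UMIs in control and 1 in cKO. Kat2b, an acetyltransferase, was at 35.2 and 14.9 CPM there, and under 2-fold with a gate of 2 UMIs, with cells of several gates kept and with the mean of cells.

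Over the 16 sums of class and library, the levels of Hes1 and Hey1 correlated at Pearson r = 0.71 on the log2(CPM + 1) scale, and those of Dll1 with Hes1 at 0.73 and with Hey1 at 0.72. Notch1 and Notch2 correlated at 0.57, Jag1 and Notch1 at 0.55, and Dll4 and Notch2 at -0.65. These values describe 8 classes measured in 2 libraries, whose sums share depth and cell mixture. The genes most like each member were named by the same measure, up to 3 for each. For the ligands they were Esam (0.93), Gm15728 (0.92) and Fzd4 (0.91) with Dll1, and Gpr4 (0.91), Tnrc18 (0.83) and Macc1 (0.82) with Dll4. Jag1 was nearest to Srxn1 (0.91), Atp6v1c1 (0.89) and Dtnbp1 (0.88), and Jag2 to Adap1 (0.82) and Stoml1 (0.79). For the receptors they were Pitpnc1 (0.93), Slc9a9 (0.92) and Tanc2 (0.92) with Notch1, Cd164 (0.96), Tmem222 (0.88) and Sh3gl1 (0.88) with Notch2, and Fam43a (0.87), Cdkl1 (0.84) and Klf7 (0.84) with Notch3. Hes1 was nearest to Arhgef12 (0.96), Nfib (0.96) and Amotl1 (0.95), and Hey1 to Shank3 (0.90), Bcr (0.90) and Podxl (0.89). Notch4 had too few UMIs for this.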

How the data were processed

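The authors deposited unfiltered counts of UMIs per gene and barcode. Per the file headers they were written by Cell Ranger 4, and the submitters' processing notes name Cell Ranger 6.1.1 and mm10; the annotation was not given in the sources used here. The matrices hold 45035801 UMIs in control and 57145553 in cKO. Groups came from the sample titles.

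The members, pathway list and markers were chosen with earlier results of these data known. Cells were filtered and gated as described above, no doublets were called beyond leaving out cells with gates of several classes, and counts were summed per class and library (Python 3.11.15, scipy 1.17.1). With 1 library per group no test was made. Called means a 2-fold difference in CPM among genes with at least 20 UMIs over both libraries, and a count of 0 is read as up to 3 counts. Intervals do not cover differences between animals. The 2-fold call and the ratio interval were tested on simulated class sums with known changes and counting error only. Gating, mixed classes, thinning and cell-free subtraction were not simulated. All members are named. Of the other pathway genes, those named are at most 3 per direction and class past 2-fold whose interval limit nearer to 1 is farthest from 1, with a level in the higher library not under that of cell-free barcodes; stromal Dtx3l was added after its values were seen. For likeness, members with at least 50 UMIs were correlated with genes with at least 200 UMIs over the classes, and up to 3 are named for each; 1 gene is not reported here.

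The alternatives changed the gene minimum, mitochondrial limit, gate, depth, scaling (edgeR 4.0.16 TMM factors, or median-of-ratios size factors), cell-free RNA (share set at 0 to 0.426% of a class), UMI minimum and the inclusion of single deep cells. The cell-free share came from the marker of another class that was lowest against its cell-free level. Where that marker had 0 UMIs the share was 0, so nothing was subtracted and this alternative could not move a value. This was so outside the Epcam and Pdgfra classes, and in Epcam-gated cells of cKO. The share therefore does not measure how much cell-free RNA a class held. Gates without Upk3b, Ptprc, Dcn, Col3a1, Cdh5 or Prox1, the gates requiring Krt8 or Cdh5, and the splits by Ltf, Ifnb1, Mki67, Mrc1, Ccr7, Cd3e and Ncr1 were chosen after seeing the data. Gene positions are from GENCODE M21 on GRCm38, in which 32158 of 32285 identifiers were found. On the opposite strand, annotated genes overlap Dll1, Dll4, Notch1, Notch3 and Notch4; whether counting used strand is not stated.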

Additional observations from a re-analysis of the deposited data

Results flagged for a closer look

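3 genes were past 2-fold in opposite directions in different classes of the same 2 libraries, and in each case the difference between the classes was not tested, since 1 library per group allows no test. Dll4 had a log2 ratio of cKO to control of -2.52 in Epcam-gated cells and 2.88 in dendritic cells, the first from 415 and 17 UMIs and the second from 2 and 56 UMIs. Aph1b had 2.67 in Epcam-gated cells and -1.37 in macrophages, the latter from 25 and 5 UMIs with an interval of the ratio that includes 1. The macrophage value of Aph1b was -0.65 with the mean of cells, under 2-fold, and thinning left 4 and 0 UMIs. Aph1c, a near relative of Aph1b with which it can share reads, had 1.60 in Epcam-gated cells, from 14 and 10 UMIs, and -1.07 in stromal cells, from 26 and 39 UMIs.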

How the results depend on the processing

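The Dll4 log2 ratio in Epcam-gated cells was past 2-fold under the 13 alternatives that gave a ratio, from -3.13 to -1.78. With cells thinned to 1000 UMIs it had 20 UMIs in control and 0 in cKO, which gives no ratio and, with 3 counts in place of 0, is under 2-fold. The sign of a log2 ratio turned in 55 cases, in 23 of 57 ratios, of which 53 concerned ratios under 2-fold and 2 ratios past it. Under the gate with Krt8 and without Upk3b or Ptprc, Dll1 was at -0.57, and without cells carrying stromal or endothelial markers dendritic Hes1 was at -0.26. TMM factors lowered log2 ratios by 0.59 in Epcam-gated cells, where the median of all genes was 0.45, and turned Hey1 there from 0.44 to -0.15.

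Counts of members past 2-fold in either direction moved as follows, where changes within 1.5 times are also given for the members. In Epcam-gated cells, from 3, it was 1 with thinning and 4 with TMM or median-of-ratios scaling and without the top 2% of cells by UMIs. In stromal cells, 1 in the main analysis, it was 0 with thinning and 2 with the mean of cells. In muscle, from 0, it was 1 with 1000 genes, a mitochondrial limit of 10%, a gate of 2 UMIs, thinning and the mean of cells, and 2 with multiply gated cells kept. In macrophages, from 0, it was 1 with the 10% limit, a gate of 2 UMIs and without stromal or endothelial markers, and 2 with thinning and the mean of cells. In dendritic cells, from 2, it was 4 with a gate of 2 UMIs, 3 without the top cell and with TMM or median-of-ratios scaling, and 1 with multiply gated cells kept and without stromal or endothelial markers. In lymphoid cells, from 1, it was 0 with thinning. For the other pathway genes, of which only changes beyond 1.5 times are given, it went from 13 to 6 with thinning and 20 with no UMI minimum in Epcam-gated cells. In muscle, from 2, it was 5 with the mean of cells and with no minimum and 1 with a minimum of 50 UMIs. In macrophages, from 2, it was 4 without stromal or endothelial markers, 1 with thinning and 0 at 50 UMIs. In dendritic cells, from 6, it was 3 with thinning. In lymphoid cells, from 2, it was 1 with a gate of 2 UMIs, with thinning and at 50 UMIs, and 5 with multiply gated cells kept. Thinning and a higher minimum leave fewer UMIs, and the cause of the other moves was not tested. Ratios with 0 UMIs in a library under an alternative were left out. Of the 710 others, 620 stayed within their counting error, whatever their sign, 88 moved beyond it and 2 turned from past 2-fold. No paired analysis was possible because each group is 1 library.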
